A study of Danio rerio with 10 samples.

Results

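Macroautophagy encloses part of the cytoplasm in a membrane, the autophagosome, and delivers it to the lysosome for degradation. A kinase complex of the Ulk type starts the process, a lipid kinase complex with Beclin 1 marks the membrane, and 2 ubiquitin-like conjugation systems attach Atg8 proteins (the Lc3 and Gabarap families) to it. Receptors such as p62 (*sqstm1*) and optineurin (*optn*) bind both the cargo and Atg8, so they are degraded with what they carry. These roles are known mainly from yeast and mammals. The RNA level of these genes is measured here, not the flux through the pathway or the amount of protein.

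The autophagy machinery was described through 39 genes of the 32520 in the table. They were taken by symbol (the *atg*, *gabarap*, *map1lc3*, *ulk*, *wipi* and *becn* genes, plus *sqstm1*, *optn*, *nbr1a*, *nbr1b*, *tax1bp1a*, *tax1bp1b*, *bnip3*, *uvrag* and *tfeb*) and by a mean of at least 10 normalized counts over the 10 samples. Of 41 rows with such a symbol, 2 were below this mean: *map1lc3c* (ENSDARG00000100528), at 9.07, and a further identifier of *atg16l2* (ENSDARG00000109384), at 7.62. Just inside it was the *atg16l2* gene kept here (ENSDARG00000043238), at 15.9. The rule reads symbols and the mean over all samples. Normalized counts are read counts after division by the size factor that the sample was given, so values compare samples for one gene and not genes with each other.

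Larvae of the AB strain were exposed for 5 days from the first hours after fertilization to a mixture of persistent organic pollutants (POPs) modelled on human blood, and RNA from whole larvae, pooled, was sequenced at 5 dpf. The 3 groups were control larvae in 0.1% DMSO (3 samples), larvae at 75 times the blood concentration in 0.1% DMSO (POP75×, 3 samples) and larvae at 125 times the blood concentration in 0.1% DMSO (POP125×, 4 samples). All medium, control medium included, therefore held the solvent. The sample records give 75 larvae per pool, whereas the methods of the study give another number. Treatments were repeated in independent experiments, but no record ties a replicate number to one of them, so p-values measure the spread between these pools.

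Reads assigned to genes ranged from 13659239 to 20267255 per sample. At POP125×, 366 of 21563 genes tested (1.70%) differed from control with limma at a Benjamini-Hochberg adjusted p under 0.05, of which 291 (1.35%) were higher and 75 (0.348%) lower. At POP75× against control and at POP125× against POP75× the same fit called 0 genes, with 1274 (5.91%) and 1051 (4.87%) at an unadjusted p under 0.05. DESeq2 called 1570, 119 and 21 genes in the 3 comparisons, and edgeR 285, 0 and 0. Both doses were compared with the same 3 control samples.

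None of the 39 genes passed the threshold at POP125× with limma or edgeR (1.70% and 1.32% of all genes did). The highest fold changes among them were those of *atg16l2* (2.35-fold), *optn* (2.10-fold), *tfeb* (2.02-fold), *sqstm1* (1.96-fold), *ulk1a* (1.60-fold) and *atg9b* (1.55-fold), and all 4 POP125× samples were above all 3 control samples for each of these. DESeq2 on the same reads called 4 of the 39 (background 7.30% of genes, 4.58% higher and 2.71% lower), namely *ulk1a*, *optn*, *atg9b* and *sqstm1*, all higher. At an unadjusted p under 0.05 in limma 7 genes were higher and 0 lower (17.9%, against 21.0% of all genes tested, 11.5% higher and 9.50% lower), the 4 just named with *tfeb*, *atg4a* and *atg4b*. Limma with only the control and POP125× samples in the fit called the same 4 genes and *tfeb* (7.33% of genes passed there). With edgeR, 7 of the 39 (17.9%) had an unadjusted p under 0.05, where 20.6% of all genes had one.

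The groups did not overlap for 11 of the 39 genes (28.2%), all higher at POP125×, where 24.0% of all genes did not overlap, 12.4% higher and 11.6% lower. With a log2 fold change of at least 0.5 required as well, 6 of the 39 (15.4%) remained beside 15.0% of all genes. The log2 fold change was above 0 for 29 of the 39 (74.4%), beside 49.3% of all genes, and the median was 0.08 beside −0.01. Without control replicate 1 the log2 fold change was above 0 for 22 of the 39, and without any other one library for 25 to 29. The share of all genes was not counted in those fits. All 39 genes passed the minimum of 10 normalized counts in at least 3 samples that testing required.

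**Figure D1:**
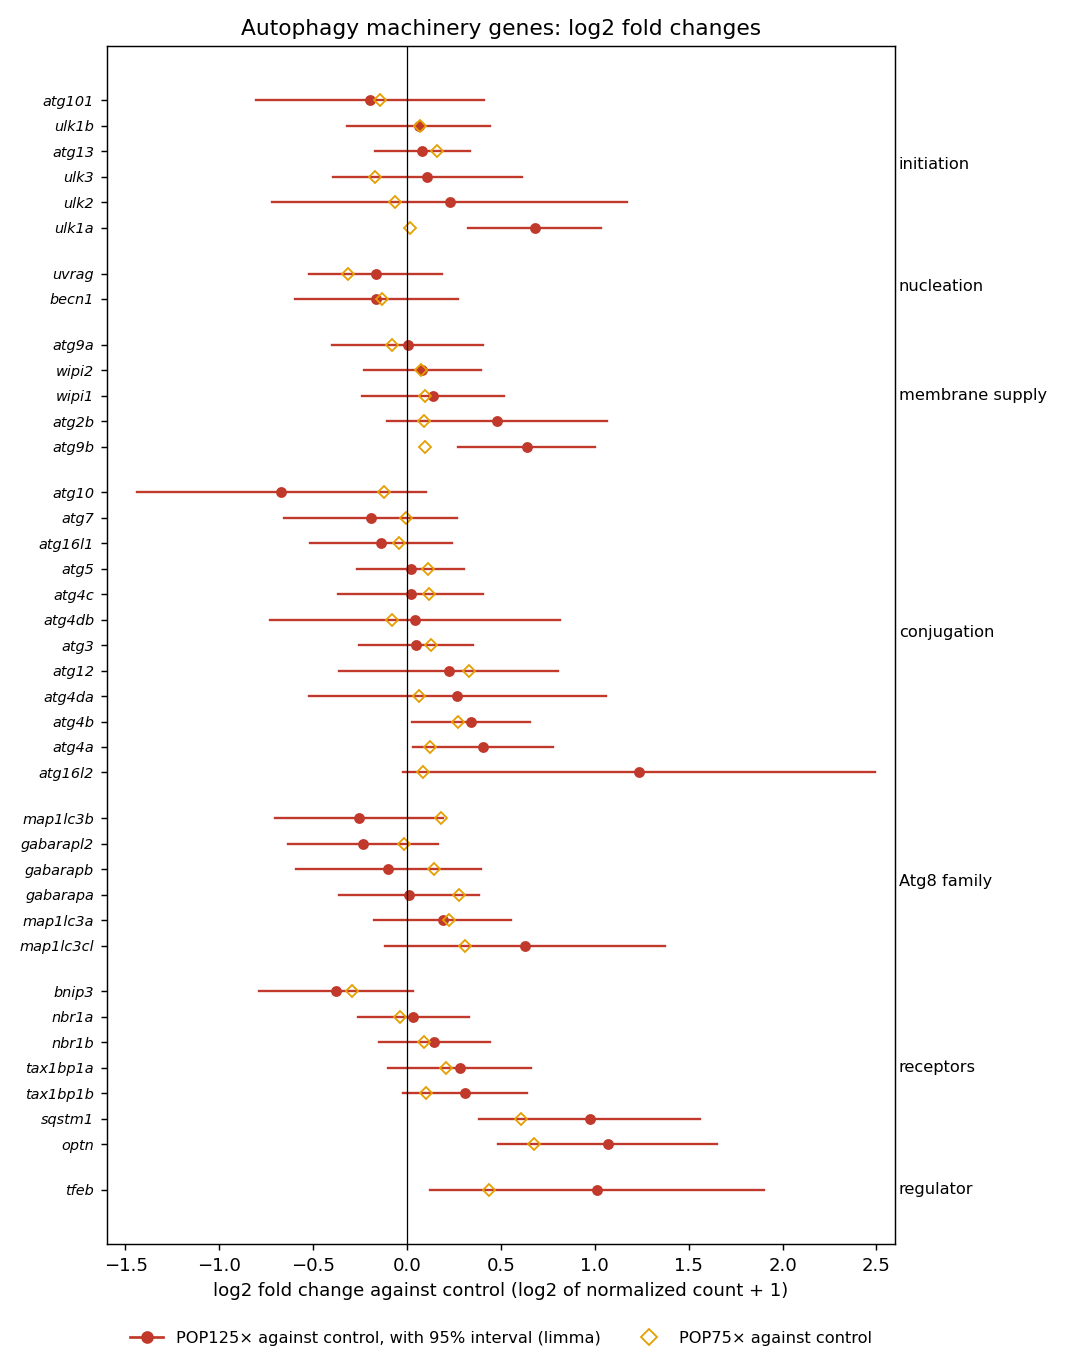
Log2 fold changes of the 39 genes against control on the log2(normalized count + 1) scale (horizontal axis), by role (vertical axis). Filled circles with bars are POP125× with the 95% interval of limma, open diamonds are POP75×. The bars of 7 genes, among them *ulk1a*, *atg9b*, *sqstm1*, *optn* and *tfeb*, do not reach 0, and no gene passed the threshold after adjustment over all genes.

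Among the 6 initiation genes, which start autophagosome formation, *ulk1a* had the highest log2 fold change at POP125× over all samples. The *ulk1a* gene (ENSDARG00000062518), one of the paired zebrafish genes for the kinase Ulk1, had 177, 169 and 176 normalized counts in control pools 1, 2 and 4. Pools 2, 3 and 4 of POP75× had 174, 166 and 188, and pools 1, 2, 3 and 4 of POP125× had 358, 244, 252 and 277. The control and POP75× pools lay within the same narrow range, and every POP125× pool lay above it, with pool 1 the highest. The means were 174 ± 4.18 (SD, n = 3) in control and 283 ± 52.2 (SD, n = 4) in POP125× samples. For *ulk1a* the log2 fold change was 0.68 (standard error 0.16, limma adjusted p = 0.0611), and that of DESeq2 was 0.70 (adjusted p = 0.00509). Between the doses it was 0.67 (standard error 0.16, limma unadjusted p = 0.00162, adjusted p = 0.885), and against control at POP75× 0.02 (95% interval −0.36 to 0.39).

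The co-ortholog *ulk1b* (ENSDARG00000074481) had 420 ± 95.1 normalized counts (SD, n = 3) in control and 433 ± 49.9 (SD, n = 4) in POP125× samples, with overlapping groups. Its log2 fold change was 0.06, with a 95% interval of −0.32 to 0.44. The difference between *ulk1a* and *ulk1b* was not tested. The *atg13* gene (ENSDARG00000036040), for the scaffold of the kinase complex, was the least variable of the 39, with a highest value 1.18 times its lowest. Its POP125× values (874 to 966) and POP75× values (924 to 971) all lay above the control values (823 to 866), at log2 fold changes of only 0.08 and 0.16. The *atg101* and *ulk3* genes overlapped between control and both doses. The *ulk2* gene, named here after its values were seen, overlapped too and is described with the sample sets further on.

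Both nucleation genes overlapped between POP125× and control, *becn1* (ENSDARG00000079128, Beclin 1) at a log2 fold change of −0.16 and *uvrag* (ENSDARG00000023815, a Beclin 1 partner) at −0.17. At POP75× the *uvrag* values of 88.6 to 109 lay below the control values of 112 to 137. This was the only one of the 39 genes below its control range at either dose, and its log2 fold change was −0.32 (standard error 0.17, limma adjusted p = 0.876).

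Of the 5 genes of membrane supply, *atg9b* (ENSDARG00000055292) had the largest difference. Atg9 proteins are membrane-spanning lipid scramblases carried on the vesicles from which the autophagosome grows. Normalized counts of *atg9b* were 637, 694 and 659 in the control pools, 760, 534 and 870 in the POP75× pools and 1072, 1034, 955 and 1068 in the POP125× pools, in the order of their numbers as throughout. The POP125× pools were close to each other and above both other groups, while POP75× spread to both sides of control. Against control it was higher by 0.64 on the log2 scale (standard error 0.17, limma adjusted p = 0.0789, DESeq2 adjusted p = 0.00952) and against POP75× by 0.54 (standard error 0.17, limma unadjusted p = 0.00707, adjusted p = 0.885).

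The paralog *atg9a* (ENSDARG00000044551) had 620 ± 123 normalized counts in control (SD, n = 3) and 617 ± 82.8 at POP125× (SD, n = 4). Its groups overlapped, with a 95% interval of the log2 fold change from −0.40 to 0.41. For *atg2b* (ENSDARG00000097650), which codes for a lipid transfer protein, POP125× values of 54.2 to 66.9 lay above control values of 34.5 to 49.9, at a log2 fold change of 0.48 (limma adjusted p = 0.319). The *wipi1* and *wipi2* genes, whose products bind the lipid made by the Beclin 1 complex, overlapped at log2 fold changes of 0.14 and 0.08.

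**Figure D2:**
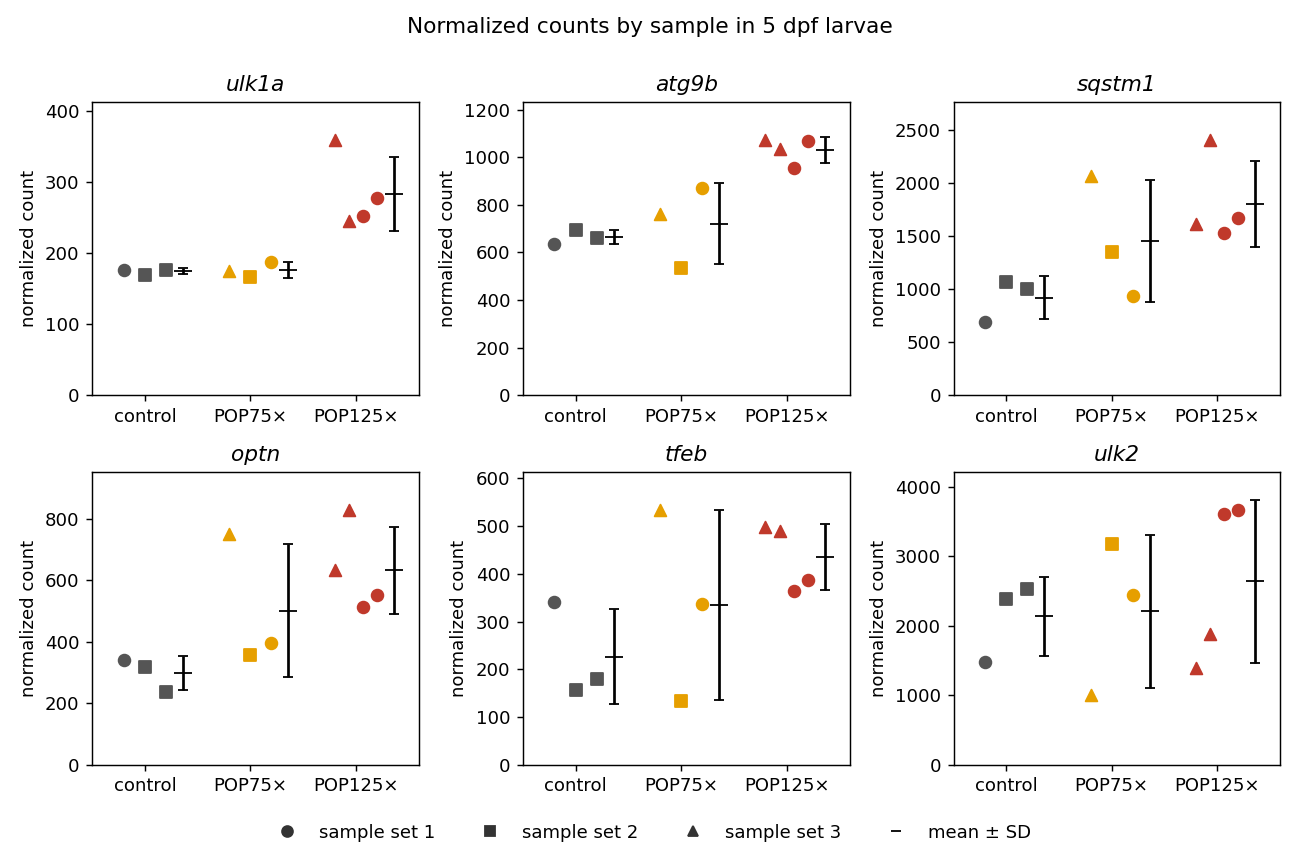
Normalized counts (vertical axes, from 0) of *ulk1a*, *atg9b*, *sqstm1*, *optn*, *tfeb* and *ulk2* in each sample, by group (horizontal axes). Points are samples, their shape gives the sample set found by clustering all other genes, and bars are the mean with its SD. The 4 POP125× values lie above the 3 control values in every panel but that of *ulk2*.

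The 12 conjugation genes code for the enzymes that activate, transfer and trim Atg8 and Atg12. The core of both systems overlapped between POP125× and control: *atg7*, the activating enzyme, *atg3* and *atg10*, the transfer enzymes, and *atg5*, *atg12* and *atg16l1*, which form the complex that places Atg8 on lipid. Log2 fold changes of *atg3* and *atg5* were 0.05 and 0.02, with 95% intervals of −0.26 to 0.35 and −0.27 to 0.30. The lowest of the 39 genes was *atg10* (ENSDARG00000104846), at −0.67 with a 95% interval of −1.44 to 0.10. It had 31.8 ± 11.9 normalized counts (SD, n = 3) in control and 19.1 ± 4.57 (SD, n = 4) in POP125× samples, so counting error is large for it.

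Among the Atg4 proteases, which trim Atg8 and release it from membranes, *atg4a* and *atg4b* were above control in all 4 POP125× samples. The *atg4b* gene (ENSDARG00000052104) ranged from 150 to 188 normalized counts in control, 193 to 226 in POP75× and 212 to 226 in POP125× samples. It was thus above the control range at both doses, with log2 fold changes of 0.27 and 0.34 (limma adjusted p = 0.876 and 0.208). The *atg4a* gene (ENSDARG00000014531) ranged from 243 to 255 in control and from 288 to 391.6 in POP125× samples, at a log2 fold change of 0.40 (limma adjusted p = 0.209). The *atg4c*, *atg4da* and *atg4db* genes overlapped.

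The *atg16l2* gene, a relative of *atg16l1*, had few reads. Its normalized counts were 18.1, 4.89 and 7.88 in the control pools, 23.3, 3.20 and 10.7 in the POP75× pools and 27.3, 19.5, 25.2 and 19.2 in the POP125× pools. The lowest POP125× value (19.2) was only just above the highest control value (18.1). Its log2 fold change of 1.24 had a standard error of 0.57 and a 95% interval of −0.02 to 2.49 (limma adjusted p = 0.246). Reads of its 2 identifiers may be shared, which makes the value of either uncertain.

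Lipid-bound Atg8 proteins stud the autophagosome and hold the receptors. In this family 0 of 6 genes were free of overlap in any comparison. Of all genes, 24.0% were at POP125× and 9.32% at POP75× against control, and 5.69% between the doses. With treatment as the only term none of the 6 passed the threshold with limma, edgeR or DESeq2 (at POP125× 1.70%, 1.32% and 7.30% of all genes did). None had an unadjusted p under 0.05 with limma, beside 21.0%, 5.91% and 4.87% of all genes in the 3 comparisons. Counts of 0 among so few genes do not set the family apart. With a term for the sample set, described further on, *map1lc3a* passed at POP125× and *gabarapa* at POP75×. The *gabarapa* gene (ENSDARG00000035557) had 991, 1102 and 1109 normalized counts in control, 1088, 1699 and 1160 in POP75× and 991, 1001, 1092 and 1221 in POP125× samples, each in the order of replicate numbers. The *gabarapb* gene (ENSDARG00000052082) had 1133, 1746 and 1617 in control, 1464, 2386 and 1236 in POP75× and 1365, 1390, 1272 and 1481 in POP125× samples. For both genes POP75× replicate 3 was the highest of all 10 samples, and the POP125× samples lay inside the control range except replicate 4 for *gabarapa*.

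The *gabarapl2* gene (ENSDARG00000027200) had 404, 419 and 389 normalized counts in control, 308, 510 and 405 in POP75× and 307, 317, 344 and 415 in POP125× samples. In 3 of the 4 POP125× samples it was below the control range, and in the remaining one inside it. The *map1lc3a* gene (ENSDARG00000033609) had 795, 955 and 1115 in control, 1035, 1355 and 965 in POP75× and 977, 1063, 1093 and 1191 in POP125× samples. The *map1lc3b* gene (ENSDARG00000101127) had 1540, 1830 and 1560 in control, 1544, 2557 and 1624 in POP75× and 1359, 1080, 1484 and 1623 in POP125× samples. For these 3 genes too POP75× replicate 3 was the highest sample.

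The *map1lc3cl* gene (ENSDARG00000075727) ran the other way in that sample: it had 101, 55.7 and 70.9 normalized counts in control, 134, 46.9 and 121 in POP75× and 130, 109, 121 and 99.5 in POP125× samples, so that POP75× replicate 3 was the lowest of the 10. Log2 fold changes at POP125× were 0.01 (*gabarapa*), −0.10 (*gabarapb*), −0.23 (*gabarapl2*), 0.19 (*map1lc3a*), −0.26 (*map1lc3b*) and 0.63 (*map1lc3cl*). The 95% intervals of these log2 fold changes were −0.36 to 0.38 (*gabarapa*), −0.59 to 0.39 (*gabarapb*), −0.63 to 0.17 (*gabarapl2*), −0.18 to 0.55 (*map1lc3a*), −0.70 to 0.19 (*map1lc3b*) and −0.12 to 1.37 (*map1lc3cl*).

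**Figure D3:**
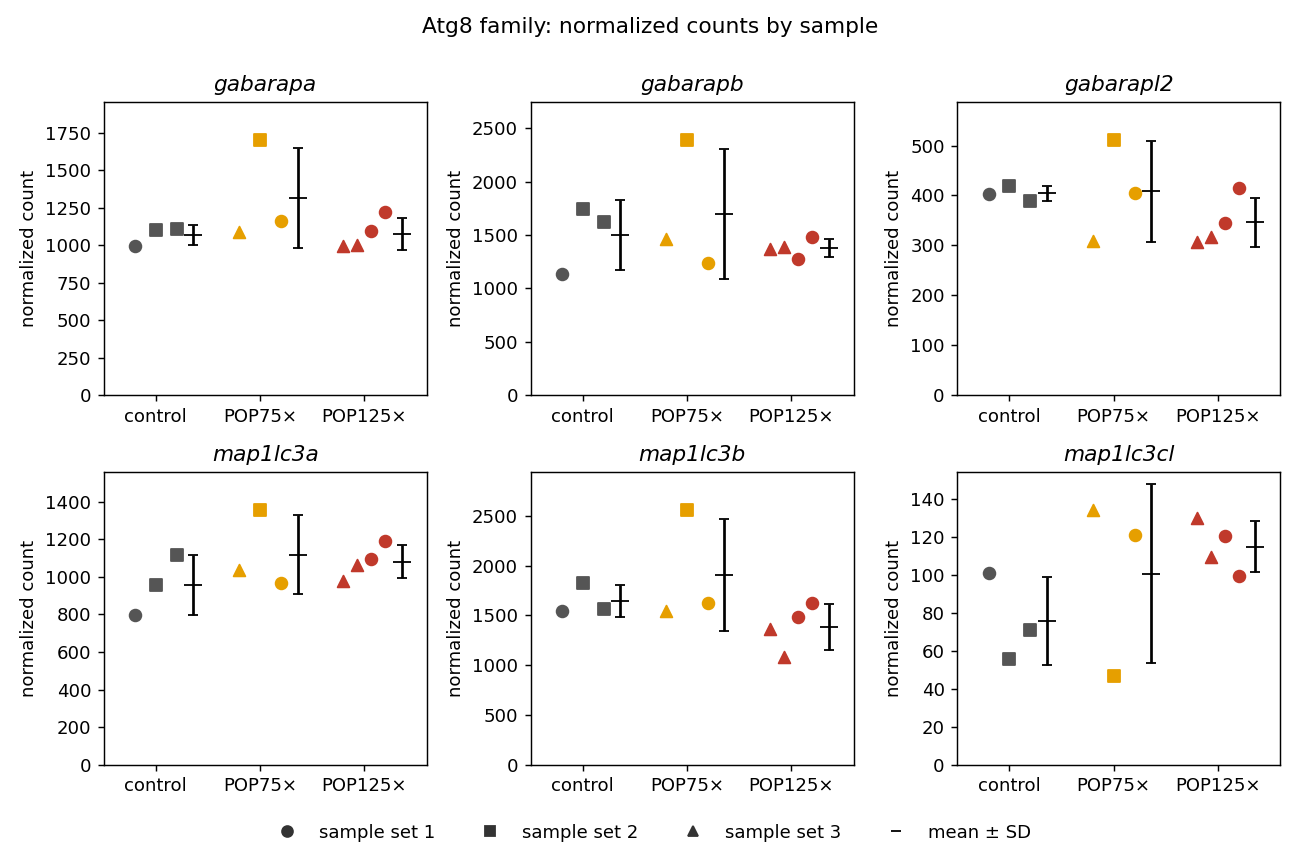
Normalized counts (vertical axes, from 0) of the 6 Atg8 family genes in each sample, by group (horizontal axes). Points are samples, shapes are the sample sets, and bars are the mean with its SD. POP75× replicate 3 is the highest point for 5 of the genes and the lowest for *map1lc3cl*, and POP125× overlaps control for all 6.

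The receptors gave 2 of the largest differences. The *optn* gene (ENSDARG00000002663), for a receptor of damaged mitochondria and bacteria, had 342, 320 and 237 normalized counts in the control pools. It had 751, 357 and 398 in the POP75× pools and 636, 829.5, 513 and 553 in the POP125× pools. Both doses lay above every control pool, POP75× replicates 3 and 4 only slightly so, and the doses overlapped. Log2 fold changes of *optn* were 1.07 at POP125× (standard error 0.27, limma adjusted p = 0.0703, DESeq2 adjusted p = 0.00787) and 0.68 at POP75× (standard error 0.28, limma adjusted p = 0.791). It was the one gene of the 39 with an unadjusted p under 0.05 in limma at POP75× (2.56%, beside 5.91% of all genes).

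The *sqstm1* gene (ENSDARG00000075014), for the receptor of ubiquitinated protein aggregates, had 690, 1066 and 996 normalized counts in control, 2067, 1346 and 935 in POP75× and 1610, 2398, 1522 and 1667 in POP125× samples, in the order of replicate numbers. The POP125× pools were all above control, with replicate 2 apart from the other three, and POP75× replicate 4 fell inside the control range. The mean was 917 ± 200 in control pools (SD, n = 3), and at POP75× it was 1449 ± 573 (SD, n = 3) and at POP125× 1799 ± 404 (SD, n = 4). For *sqstm1* the log2 fold change at POP125× was 0.97 (standard error 0.27, limma adjusted p = 0.0925, DESeq2 adjusted p = 0.0186), and at POP75× 0.61 (standard error 0.29, limma adjusted p = 0.856).

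The other 5 receptor genes had smaller differences. The *tax1bp1b* gene (ENSDARG00000056856) had 2227 ± 30.1 normalized counts (SD, n = 3) in control and 2760 ± 186 (SD, n = 4) in POP125× samples without overlap, at a log2 fold change of 0.31 (limma adjusted p = 0.269). Its paralog *tax1bp1a* overlapped at 0.28. The *nbr1a* and *nbr1b* genes, whose products bind the same kind of cargo as p62, overlapped at 0.03 and 0.14, and *bnip3* (ENSDARG00000099961), a mitophagy receptor of the outer mitochondrial membrane, overlapped at −0.38 with a 95% interval of −0.79 to 0.03.

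In samples of whole larvae, fewer cells of a type and less RNA per cell cannot be told apart. All 10 lists of cell type and clock markers were detected in every sample, and no marker was at 0 in all samples. Summed macrophage markers (6 of 7 found) did not overlap between control (487 to 643 normalized counts) and POP125× (880 to 1075). Neither did *optn* and *sqstm1*, but 24.0% of all genes tested did not overlap between these groups either. Within that list *c1qb* went the other way, with 12.8 to 16.6 in control and 3.74 to 10.51 in POP125× samples, and *marco* overlapped (116 to 147 and 139 to 262). Summed neutrophil markers (654 to 741 and 803 to 898) and neuron markers (24444 to 27212 and 27287 to 30616) did not overlap either, while those of the other 7 marker lists did, skeletal muscle among them (667100 to 808430 and 703480 to 791220). Of the neutrophil markers *mpx* (log2 fold change −0.28 at POP125×) went the other way, as did *gap43* (−0.34) and *stmn2a* (−0.11) of the neuron markers. Each neuron marker alone, such as *snap25a* (4130 to 4467 and 4380 to 5545), overlapped between control and POP125×. In POP75× macrophage markers ranged from 487 to 1266. In the sample sets 1, 2 and 3 described further on, their sum was 643 to 956, 487 to 507 and 987 to 1266. Of 5 macrophage markers tested 0 passed the threshold with limma and 1 with DESeq2, and of 4 neutrophil markers likewise 0 and 1. The part of these cells in the receptor values was not tested.

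Tfeb is a transcription factor that, once in the nucleus, activates lysosome and autophagy genes, and its own gene is the only regulator among the 39. The *tfeb* gene (ENSDARG00000010794) had 341, 157 and 180 normalized counts in the control pools, 533, 134 and 336 in the POP75× pools, and 498, 489, 365 and 388 in the POP125× pools. Control replicate 1 was near the lowest POP125× samples, and POP75× held both the highest and the lowest value of all. At POP125× its log2 fold change was 1.01 with a standard error of 0.41 (limma adjusted p = 0.192). With DESeq2 the adjusted p was 0.140, and 0.00453 when the replicate number was added as a block, although no record ties these numbers to experiments.

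The 10 samples fell into 3 sets when they were clustered on the 21524 other genes tested. In set 1 were the control pool 1, the POP75× pool 4 and the POP125× pools 3 and 4. The control pools 2 and 4 formed set 2 with the POP75× pool 3, and the POP125× pools 1 and 2 formed set 3 with the POP75× pool 2. Set 2 thus had no POP125× sample and set 3 no control, so set and treatment are partly confounded. The sets carry no label in the records. In set 3 the summed circadian clock genes were at 33829 to 36349 normalized counts, beside 50784 to 59305 in the other 7 samples. The genes in that sum moved both ways. In set 3 *per1b* was lower (684 to 721, beside 2580 to 3762). The clock-controlled repressor gene *nfil3-5*, also in the sum, was higher at 5565 to 6758, beside 459 to 755. So was *arntl1b* (446 to 489, beside 112 to 178), and *rorca* was higher too (1107.5 to 1150.5, beside 363 to 583). Lens markers were at 12492 to 17700 in set 3 and 1844 to 7927 elsewhere, though *mipa* and *crygm2d1* of that list overlapped between set 3 and the other samples. Set 2 stood apart in other markers. Its exocrine pancreas markers were at 62733 to 100400, beside 13796 to 38579 elsewhere. Photoreceptor markers were at 91670 to 121780 in set 2 and 42219 to 51168 elsewhere, and erythrocyte markers at 13689 to 20466 and 6831 to 10795. Single markers did not all follow these sums. The photoreceptor genes *saga* (911 to 1045 in set 2, 1124 in control replicate 1) and *pde6c* (3692 to 4147, and 4637.5 in POP75× replicate 4) overlapped. The erythrocyte genes *slc4a1a* and *hbbe1.1* overlapped between set 2 and the other samples as well.

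A median of 53.5% of the variance of the 39 genes lay between the sets and 26.4% between the treatments, and the share of the sets was the larger one for 28 of them. For all genes tested the medians were 62.6% and 26.0%, and the share of the sets was the larger one for 16626 of 21563. The *tfeb* gene had the highest share between sets (97.3%), with set means of 357, 157 and 507 normalized counts. By contrast *ulk1a* had 84.1% of its variance between treatments and 35.2% between sets, *atg9b* 74.5% and 53.0%, *atg4b* 70.1% and 9.11%, and *atg13* 64.9% and 7.25%. These shares overlap because set and treatment do, and they describe the 10 samples without a test.

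**Figure D4:**
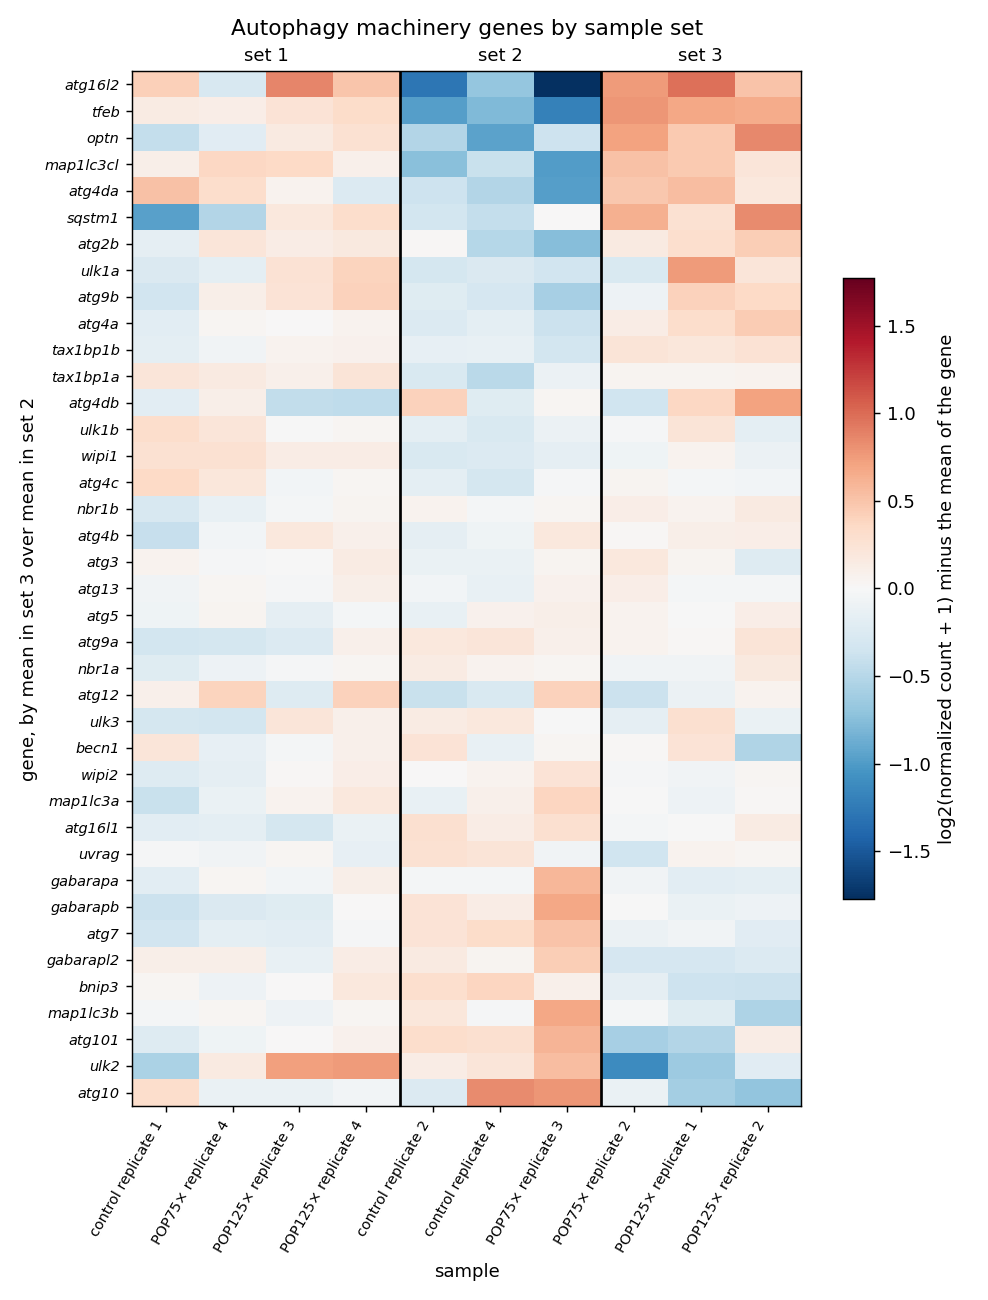
Log2(normalized count + 1) of the 39 genes (vertical axis, ordered by the mean in set 3 over the mean in set 2) minus the mean of the gene, in each sample (horizontal axis, divided into the 3 sets). Red is above and blue below the mean of the gene. The *tfeb* row is blue in all 3 samples of set 2 and red in the other 7, whichever treatment they had, and *ulk2* is blue in set 3 and in control replicate 1.

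Set 1 alone holds all 3 groups, with 1 control, 1 POP75× and 2 POP125× samples, so its differences have no test. Within it, POP125× was above control by 1.21 on the log2 scale for *sqstm1*, 0.66 for *atg9b*, 0.64 for *optn* and 0.58 for *ulk1a*. The *tfeb* difference was 0.14 and that of *atg16l2* 0.27, both much smaller than over all samples. Of the 39 genes, 26 were higher at POP125× than in control within set 1, with a median of 0.22. POP75× was above control for 27 genes in set 1 (median 0.11) and for 23 in set 2 (median 0.11), and POP125× above POP75× for 21 in set 3 (median 0.01). The same shares over all genes were not computed within the sets, so these counts cannot be called particular to the 39.

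With the set added to limma as a further term, 7 of the 39 genes passed the threshold at POP125× (12.6% of all genes, 8.01% higher and 4.54% lower). These were *ulk2*, *sqstm1*, *map1lc3a*, *ulk1a*, *atg4b* and *optn*, which were higher, and *atg4da*, which was lower at a log2 fold change of −0.64 (limma adjusted p = 0.01995). Set 3 without control and set 2 without POP125× leave much of this fit to the few samples of set 1. The sets were also found by clustering these same samples, so p-values with the set as a term can be too small. The log2 fold change of *optn* was 0.56 in it (limma adjusted p = 0.0458), that of *ulk1a* 0.60 and that of *sqstm1* 0.94, while that of *tfeb* was −0.05, that of *atg16l2* −0.05 and that of *atg9b* 0.45 (limma adjusted p = 0.0753). In this fit 14 of the 39 genes had the opposite sign to the fit without the term, and 27 were above 0. Neither count was made over all genes.

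The *ulk2* gene (ENSDARG00000097205), for a kinase related to Ulk1, had the lowest adjusted p of the 39 with that term. It had 1477, 2390 and 2534 normalized counts in the control pools, 1007, 3173 and 2441 in the POP75× pools, and 1391, 1889, 3616 and 3666 in the POP125× pools. All 3 samples of set 3 were low (1007 to 1889), and in set 1 the control sample was at 1477 beside 3616 and 3666 at POP125×. Over all samples its log2 fold change at POP125× was 0.23 (standard error 0.43, limma adjusted p = 0.774). With the set as a term it was 1.201 (standard error 0.14, limma adjusted p = 0.000195). At POP75× *ulk2* and *gabarapa* passed with that term, at log2 fold changes of 0.52 and 0.45 (limma adjusted p = 0.0309 and 0.0257, background 4.67%), and between the doses *ulk2* alone, at 0.68 (limma adjusted p = 0.0304, background 0.283%). The clock genes move with set 3, and their part in the low *ulk2* values was not tested.

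At POP75×, without the set term, none of the 39 genes passed the threshold with limma, DESeq2 or edgeR, and DESeq2 gave no adjusted p for *atg16l2* and *atg4db*. The log2 fold change was above 0 for 26 of the 39 (66.7%, beside 50.0% of all genes). The groups did not overlap for 4 of them (10.3%, beside 9.32% of all genes), namely *atg13*, *atg4b* and *optn*, which were higher, and *uvrag*, which was lower. The log2 fold change from POP75× to POP125× was above 0 for 22 (56.4%, beside 48.7%). Between these groups *ulk1a* and *atg9b* were the 2 genes without overlap (5.13%, beside 5.69% of all genes) and also the 2 with an unadjusted p under 0.05 in limma (5.13%, beside 4.87%). The log2 fold changes of *ulk1a*, *atg9b* and *atg4a* were 0.02, 0.09 and 0.12 at POP75× and 0.68, 0.64 and 0.40 at POP125×, those of *optn* and *sqstm1* 0.68 and 0.61 at POP75× and 1.07 and 0.97 at POP125×.

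Genes that work with the machinery but lie outside the 39 were counted in 8 lists. In the list of membrane expansion and fusion 2 of 22 genes rose at POP125× (1.35% of all genes) and 0 fell, at a median log2 fold change of 0.23. At an unadjusted p under 0.05 in limma 7 were higher and 1 lower (11.5% and 9.50% of all genes were). DESeq2 called 3, all higher (4.58% of all genes were). The *tmem41ab* gene (ENSDARG00000026771), of the family of the scramblase Tmem41b, had 237, 174 and 167 normalized counts in control, 879, 404 and 602 in POP75× and 725, 938, 769 and 746 in POP125× samples. Every exposed pool lay above every control pool. It rose by 2.05 on the log2 scale at POP125× (standard error 0.24, limma adjusted p = 0.00502), and at POP75× the log2 fold change was 1.65 (limma adjusted p = 0.112), past the threshold there with DESeq2. The *rab7b* gene (ENSDARG00000021287), for a small GTPase of late endosomes and lysosomes, rose from 189 ± 17.9 (SD, n = 3) to 472 ± 54.8 normalized counts (SD, n = 4), or by 1.31 on the log2 scale (limma adjusted p = 0.0125).

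Of 20 further receptors 2 rose (1.35% of all genes did) and 0 fell, at a median of 0.23. At an unadjusted p under 0.05 in limma 8 were higher and 2 lower (11.5% and 9.50% of all genes were). DESeq2 called 4, all higher (4.58% of all genes were). The *retreg1* gene (ENSDARG00000079059), for a receptor that targets endoplasmic reticulum to autophagy, had 42.9, 25.4 and 26.6 normalized counts in control, 115, 69.3 and 119 in POP75× and 184, 330, 257 and 273 in POP125× samples. None of the 3 groups overlapped, and POP75× lay between control and POP125×. For *retreg1* the log2 fold change was 3.01 at POP125× (standard error 0.28, limma adjusted p = 0.00135) and 1.64 at POP75× (limma adjusted p = 0.144), where DESeq2 called it. The *calcoco1b* gene (ENSDARG00000016391), of the family of the receptor Calcoco1, had 30.5, 41.1 and 33.5 in control and 497, 461, 262 and 252 in POP125× samples. POP75× replicate 2, of set 3, had 230, and POP75× replicates 3 and 4 had 24.5 and 57.6. Its log2 fold change of 3.30 (standard error 0.58, limma adjusted p = 0.0213) was 2.18 with the set as a term (limma adjusted p = 0.00232).

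Among 37 genes of mTORC1 and AMPK signalling, the nutrient and energy sensors upstream of the Ulk kinases, 3 rose (1.35% of all genes did) and 0 fell, at a median of 0.15. With limma 9 were higher and 0 lower at an unadjusted p under 0.05 (11.5% and 9.50% of all genes were). DESeq2 called 5, all higher (4.58% of all genes were). The 3 that rose with limma were *ddit4* (ENSDARG00000037618), *sesn2* (ENSDARG00000070012) and *eif4ebp3l* (ENSDARG00000041607). Ddit4 and Sestrin 2 are stress-induced inhibitors of mTORC1, and the product of *eif4ebp3l* represses translation when mTORC1 is inactive. The log2 fold changes were 0.97, 1.01 and 1.04 (limma adjusted p = 0.0316, 0.0296 and 0.0179). The *sesn2* gene had 105, 162 and 158 normalized counts in control, 221, 204 and 172 in POP75× and 240, 285, 339 and 268 in POP125× samples, and none of the 3 groups overlapped. The *ddit4* values were 302 to 375 normalized counts in control, 670 to 1103 in POP75× and 593 to 799 in POP125× samples, so that both doses lay above control and overlapped each other. The largest log2 fold change of this list was that of *rps6kb1a* (ENSDARG00000018399), at 1.28, which DESeq2 called (adjusted p = 0.00707) and limma did not (adjusted p = 0.0778). With the set as a term it was 0.48 (limma adjusted p = 0.0986).

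Of 36 lysosome genes 1 rose (1.35% of all genes did) and 0 fell, at a median of 0.20. DESeq2 called 3, all higher (4.58% of all genes were). The one that rose with limma was *glb1* (ENSDARG00000036415), for lysosomal beta-galactosidase, at 147 ± 4.95 (SD, n = 3) in control and 247 ± 18.8 normalized counts (SD, n = 4) at POP125×, which is 0.75 on the log2 scale (limma adjusted p = 0.0356). The protease gene *ctsc* had the largest log2 fold change of the list, 0.78 (limma adjusted p = 0.0524). Of 23 V-ATPase genes, for the pump that acidifies the lysosome, 0 passed with limma. In limma 1 was higher and 1 lower at an unadjusted p under 0.05 (11.5% and 9.50% of all genes were). DESeq2 called 1 of the 23, which was lower (2.71% of all genes were). The median of the 23 was −0.01, and *atp6v0a2a* was the lowest at −0.68 (limma adjusted p = 0.0808).

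Of 12 genes for relatives of Tfeb and for Foxo factors, 0 passed the threshold with limma, 7 were higher at an unadjusted p under 0.05 (11.5% of all genes were), and DESeq2 called 4, all higher (4.58% of all genes). Their median was 0.69, beside −0.01 for all genes. The largest was *tfe3a* (ENSDARG00000098903), a close relative of *tfeb*, with 139, 43.0 and 74.8 normalized counts in control, 228, 43.7 and 252 in POP75× and 296, 269, 226 and 196 in POP125× samples. As for *tfeb*, the lowest values were those of set 2 and control replicate 1 was the highest control. Its log2 fold change was 1.66 (limma adjusted p = 0.140), and 0.31 with the set as a term (limma adjusted p = 0.513). The 6 remaining genes of the Beclin 1 complex and *rb1cc1*, the scaffold of the Ulk complex, gave 0 calls with limma and with DESeq2. In limma 1 of them was higher at an unadjusted p under 0.05 (11.5% of all genes were), which was *rubcn* (0.75, limma adjusted p = 0.156).

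**Figure D5:**
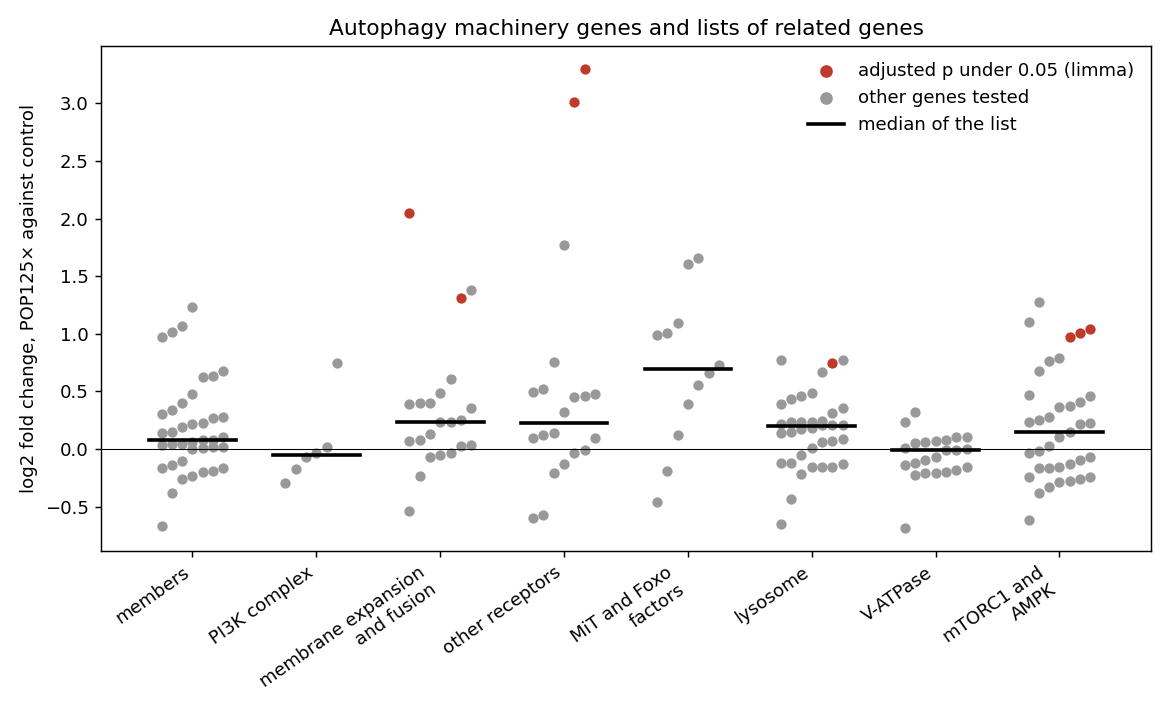
Log2 fold changes at POP125× against control (vertical axis) of the 39 genes ("members") and of 7 lists of related genes outside them (horizontal axis). Points are genes, red where the adjusted p of limma was under 0.05, and black lines are medians. The red points are *calcoco1b*, *retreg1*, *tmem41ab*, *rab7b*, *glb1*, *ddit4*, *sesn2* and *eif4ebp3l*, and there is none among the 39.

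The calls of *retreg1* and *tmem41ab* held in all 7 fits that left out one control or POP125× library in turn. The call of *rab7b* held in 3 of them and was lost without control replicate 2 or 4 or without POP125× replicate 3 or 4. That of *eif4ebp3l* held in 2, without control replicate 1 and without POP125× replicate 1. That of *calcoco1b* held only without control replicate 1 and that of *sesn2* only without POP125× replicate 1, and those of *glb1* and *ddit4* held in none. The highest adjusted p of limma in these fits was 0.0822 for *rab7b*, 0.0943 for *eif4ebp3l*, 0.108 for *calcoco1b*, 0.106 for *sesn2*, 0.164 for *glb1* and 0.160 for *ddit4*. Log2 fold changes stayed between 0.70 and 0.77 for *glb1*, 0.88 and 1.06 for *ddit4*, 1.26 and 1.39 for *rab7b*, and 3.13 and 3.46 for *calcoco1b* in these fits.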

How the data were processed

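The authors deposited one table with a value per gene and sample. By the study's methods, single-end reads of stranded poly(A) libraries were processed with an nf-core pipeline on GRCz11 and compared with DESeq2. The deposited signal is a normalized count, the count of reads divided by a size factor of the sample, with replicates kept apart. In each sample 100% of the values were whole multiples (tolerance 0.01) of what 1 read is worth, and these multiples were used as read counts. The authors' own tables of comparisons, which hold fold changes, standard errors, Wald statistics and p-values, were not used.

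The main test was limma 3.58.1 (R 4.3.3) with its intensity trend, on log2(normalized count + 1), a pseudocount of 1. It covered the 21563 genes that reached 10 normalized counts in 3 or more samples. Treatment was the one term, all 10 samples shared a fit, and the Benjamini-Hochberg adjustment ran over all genes tested. Fold changes on this scale understate those of low genes. DESeq2 1.42.0 and edgeR 4.0.16 on the read counts, TMM scaling, other pseudocounts, no filter, 2 groups in the fit, the replicate number as a block, the sample set as a term and each library left out were the alternatives. Sample sets came from average linkage clustering of log2 values, cut into 3. Matplotlib 3.10.9 (Python 3.11.15) made the plots.

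The genes, the lists, the sample sets and the tests were chosen with earlier results of these data known. Of the 39 genes, values in every sample are given for any past the threshold in the main test (there were 0), for those without overlap between POP125× and control at a log2 fold change of at least 0.5, and for the Atg8 family, *sqstm1* and *tfeb*. In the lists, genes past the threshold or with the largest change of their list are named. Any other gene was named after its values were seen. No sequences or genome coordinates were used here.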

Additional observations from a re-analysis of the deposited data

Results flagged for a closer look

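In POP125× (4 samples), 4 of the 39 genes had one sample set apart from the other three by a gap close to the whole range of the group. For *atg13*, replicate 4 was at 966 normalized counts, above 874 to 881 in the others, and the gap was 0.931 of the range. For *uvrag*, replicate 4 was at 102, below 116 to 118 (0.862 of the range). For *atg4c*, replicate 4 was at 168, above 159 to 161 (0.844 of the range). For *sqstm1*, replicate 2 was at 2398, above 1522 to 1667 (0.835 of the range). Chance flags about 1 in 20 groups by this criterion. The share of all genes that it flags was not counted, so these flags cannot be called particular to the 39.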

How the results depend on the processing

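At POP125× against control, the number of genes past the threshold was 366 with limma, 1556 with only these 2 groups in the fit, 1570 with DESeq2, 2479 with DESeq2 and the replicate block, 1164 with limma and the replicate block, and 2707 with a term for the set. Of the 39 genes these fits called 0, 5, 4, 5, 4 and 7. Leaving out one library in turn gave 38 to 476 genes (38 without control replicate 4, 40 without control replicate 2 or POP125× replicate 3, 44 without POP125× replicate 4, 65 without POP125× replicate 2, 234 without POP125× replicate 1) and 0 of the 39. At POP75× DESeq2 called 119 genes, 177 with the replicate block and limma 1008 with the set as a term, with 0, 0 and 2 of the 39, and leaving out one library gave 0 to 5 (5 without POP75× replicate 3). Between the doses the counts were 21, 68 and 61 with 0, 0 and 1 of the 39, 1 gene without the filter, and 0 to 2 without one library (2 without POP125× replicate 1). The replicate numbers showed no clear pairing: 8 same-numbered pairs correlated between −0.41 and 0.49 (median 0.09) in their deviations from the group means. The 25 differently numbered pairs correlated between −0.66 and 0.56 (median −0.09). These correlations do not settle whether the numbers pair the samples. The methods of the study name no block. Its own counts of differing genes at both doses nevertheless lie nearer to DESeq2 with the replicate block than to DESeq2 without it. With the set as a term, log2 fold changes at POP125× turned for 14 of the 39 genes, among them *atg4da* (−0.64), *atg16l2* (−0.048), *gabarapb* (0.35), *gabarapl2* (0.062), *map1lc3b* (0.12), *map1lc3cl* (−0.14) and *tfeb* (−0.050), and *rb1cc1* turned to −0.10. With the block in limma and DESeq2 they turned for 2, *gabarapa* (−0.070 and −0.068) and *ulk2* (−0.025 and −0.045), and with DESeq2 or edgeR alone for 2, *atg4c* and *atg9a*. Without one library they turned for 0 to 7 of the 39 (7 without control replicate 1), among them *gabarapa* (−0.044 without control replicate 1, −0.053 without POP125× replicate 4, range −0.053 to 0.047), *gabarapb* (0.023 without control replicate 2, range −0.29 to 0.023) and *ulk2* (−0.019 without control replicate 1, range −0.019 to 0.49). The cause was not tested, and sign changes were not counted over all genes. TMM scaling and pseudocounts of 0.5 and 5 kept every count within 1.5 times. For the genes with the fewest reads, *atg16l2*, *atg4db* and *atg10*, counting error limits what these pools can show.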
